A study of Mus musculus with 8 samples.

Results

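The genes described here are 10 members of the extracellular matrix protease system, 6 matrix metalloproteinases (Mmp2, Mmp3, Mmp9, Mmp10, Mmp13 and Mmp14), 3 tissue inhibitors of metalloproteinases (Timp1, Timp2 and Timp3) and the related protease Adamts1. They were taken by gene symbol from the 53700 genes of the count table. RNA-Seq was carried out on Lewis lung carcinoma (LLC) cells, a mouse lung tumour line, with 8 libraries in 4 groups. WT and FIH-KO LLC cells spent 16 hours in normoxia (21% O2) or in hypoxia (1% O2), without further treatment, and each group had 2 libraries. The FIH-KO line was made with Cas9 and a guide against Hif1an, the gene for factor-inhibiting HIF (FIH), and was then taken through single-cell dilution, so the effect of the gene and of the derived line cannot be told apart. The labels do not say whether the 2 libraries of a group came from separate cultures, and the p-values therefore measure the spread between these libraries, which may be technical.

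Matrix metalloproteinases (MMPs) are zinc-dependent endopeptidases that are made as inactive proenzymes and cleave collagens, proteoglycans, fibronectin and many cell surface proteins. TIMPs bind the active site of the enzymes, and the balance of enzyme and inhibitor is known to set how much matrix is broken down around invading tumour cells. FIH is an oxygen-dependent hydroxylase that restrains the transcriptional activity of hypoxia-inducible factors (HIFs).

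Library totals ran from 14519731 to 18177016 counts on genes, and levels are given as CPM, counts scaled to a common library size with TMM factors. Hif1an counts ran from 1231 to 1609 in the WT libraries and from 584 to 784 in the FIH-KO libraries, a log2 fold change of -1.20 in normoxia (SE 0.12, edgeR adjusted p = 3.1e-05) and -0.85 in hypoxia (SE 0.12, edgeR adjusted p = 0.00031). The carcinoma label was checked against epithelial markers. Epcam and Cldn4 had 0 counts in every library and Cdh1 had at most 1, whereas the keratins Krt8 and Krt18 had at least 1521 counts and the mesenchymal marker Vim at least 46720. A further keratin, Krt19, had between 11 and 235 counts. Of the 10 genes, 8 passed the filter on low counts and were tested with the other genes, 13933 in all. Mmp2 and Mmp9 did not pass. Timp3 passed only through the WT libraries, where it is higher, so a lower value in FIH-KO cells was built into its passing.

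All 5 tested proteases were higher in FIH-KO than in WT cells in normoxia. There Mmp3, Mmp10, Mmp13, Mmp14, Adamts1 and Timp2 were higher in FIH-KO cells and Timp3 was lower, so 7 of the 8 tested genes passed an edgeR adjusted p of 0.05 (6 higher and 1 lower), beside 28.2% of all tested genes (15.2% higher and 13.0% lower). The 1 lower gene, Timp3, passed the filter only through the WT libraries, as given above. The 3 proteases Mmp3, Mmp10 and Mmp13 had between 3.01 and 3.29 times the WT level. In hypoxia 3 of the 8 tested genes passed (Mmp3, Mmp14 and Timp2, all higher in FIH-KO cells), beside 28.0% of all tested genes (14.1% higher and 13.9% lower). The median log2 fold change over the 8 tested genes was 1.09 in normoxia and 0.65 in hypoxia, beside -0.00 and -0.03 over all tested genes.

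The proteases that passed with hypoxia rose and the inhibitors that passed fell. In WT cells Mmp10, Mmp13 and Adamts1 rose and Timp1 and Timp2 fell, so 5 of the 8 tested genes passed, beside 32.4% of all tested genes (16.9% higher and 15.5% lower). In FIH-KO cells these 5 genes passed in the same directions, beside 16.8% of all tested genes (8.84% higher and 8.0% lower). Mmp3 and Mmp14 passed in neither genotype. The difference between the genotypes in the response to hypoxia is tested further down as an interaction. The genotype and oxygen comparisons share groups, so their values for a gene are not independent of each other.

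**Figure D1:**
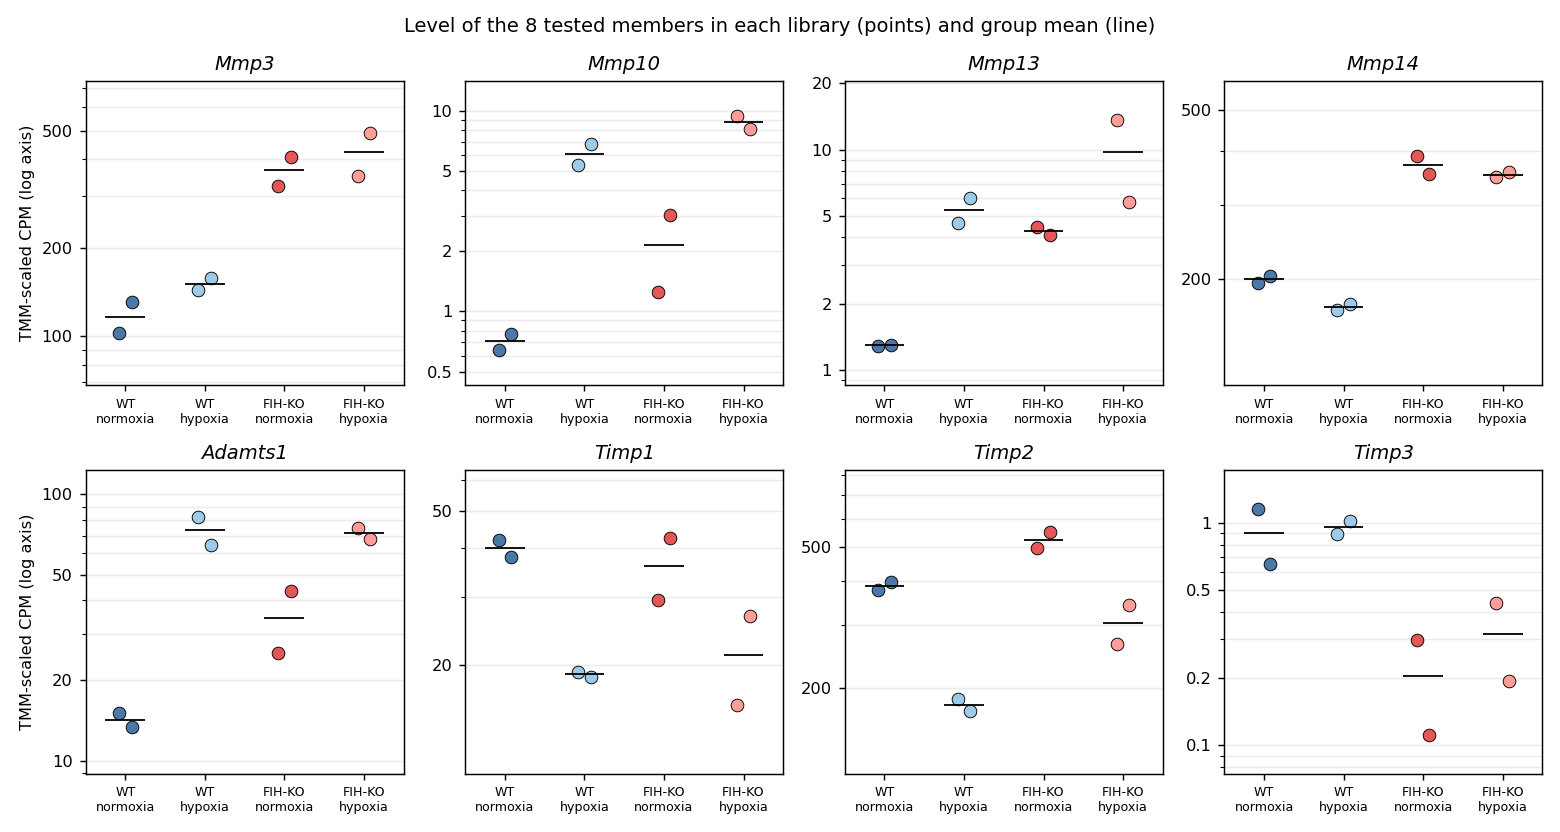
Level of the 8 tested genes in every library, as TMM-scaled CPM on log axes, with points for the 2 libraries of a group and a line at the group mean. Mmp3 and Mmp14 separate by genotype, Timp1 by oxygen, and Mmp10 and Adamts1 are lowest in WT normoxia and high in both hypoxia groups.

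Mmp3 is a stromelysin, an enzyme with broad action on proteoglycans, fibronectin and basement membrane that also activates other pro-MMPs. Its gene spans positions 7445822 to 7455975 of chromosome 9 (GRCm39, plus strand). Mmp3 stood at 102 and 131 CPM in WT normoxia, 143 and 158 in WT hypoxia, 325 and 407 in FIH-KO normoxia and 351 and 492 in FIH-KO hypoxia. Every FIH-KO library was above every WT library, and the FIH-KO groups overlapped each other. FIH-KO cells had 3.14 times the WT level in normoxia (log2 fold change 1.65, SE 0.18, edgeR adjusted p = 6.1e-05) and 2.80 times in hypoxia (log2 fold change 1.49, SE 0.18, edgeR adjusted p = 0.00012). Hypoxia gave a log2 fold change of 0.37 in WT cells (95% interval -0.01 to 0.75, edgeR adjusted p = 0.13) and 0.20 in FIH-KO cells (-0.17 to 0.58, edgeR adjusted p = 0.46). The WT value passed in 3 other fits, with an edgeR adjusted p of 0.031 without the filter, 0.021 with only the 4 libraries compared and 0.024 with the replicate block, and over all alternatives its adjusted p ran from 0.021 to 0.55.

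Mmp10 is the second stromelysin and lies on the same strand of chromosome 9 from 7502353 to 7510241. The Mmp10 level was 0.643 and 0.770 CPM in WT normoxia, 5.38 and 6.83 in WT hypoxia, 1.25 and 3.02 in FIH-KO normoxia and 9.37 and 8.14 in FIH-KO hypoxia. The 4 groups did not overlap, and the order was WT normoxia, FIH-KO normoxia, WT hypoxia and FIH-KO hypoxia. Hypoxia raised Mmp10 by 8.51 times in WT cells (log2 fold change 3.09, SE 0.41, edgeR adjusted p = 0.00024) and 4.06 times in FIH-KO cells (log2 fold change 2.02, SE 0.35, edgeR adjusted p = 0.0023). The value in FIH-KO cells was 2.80 without replicate 2 of FIH-KO normoxia. FIH-KO cells had 3.01 times the WT level in normoxia (log2 fold change 1.59, SE 0.45, edgeR adjusted p = 0.020), and 1.44 times in hypoxia (0.52 on the log2 scale, 95% interval -0.16 to 1.21, edgeR adjusted p = 0.25). The call in normoxia rests on few counts, between 10 and 54 a library. It was lost without replicate 2 of FIH-KO normoxia (log2 fold change 0.81, edgeR adjusted p = 0.22) and without replicate 1 or replicate 2 of WT normoxia (1.47, edgeR adjusted p = 0.13, and 1.71, edgeR adjusted p = 0.086).

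The stromelysin transcripts share sequence. Of the 1673 windows of 50 bases in the main Mmp10 transcript, 140 also occur in Mmp3, so some reads could have been assigned to the wrong gene or left out. The far more abundant Mmp3 had between 23.1 and 26.6 counts per Mmp10 count in WT hypoxia and 159 and 170 in WT normoxia. In FIH-KO cells the values were 37.5 and 60.4 in hypoxia and 260 and 135 in normoxia. The ratio thus changed with oxygen in both genotypes, whereas the normoxia values of WT and FIH-KO cells overlapped. The part of Mmp3 reads in the Mmp10 counts was not tested.

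Mmp13 is a collagenase that cleaves fibrillar collagen, and it lies at the other side of Mmp3 on chromosome 9 from 7272514 to 7283331. It was at 1.29 and 1.30 CPM in WT normoxia, 4.65 and 6.01 in WT hypoxia, 4.47 and 4.09 in FIH-KO normoxia and 13.6 and 5.79 in FIH-KO hypoxia. WT normoxia lay below the other groups. The FIH-KO hypoxia libraries differed from each other by more than any other pair, and the lower of them lay within the WT hypoxia range. Against WT normoxia, Mmp13 was 3.29 times higher in FIH-KO normoxia (log2 fold change 1.72, SE 0.42, edgeR adjusted p = 0.0092) and 4.08 times higher in WT hypoxia (log2 fold change 2.03, SE 0.41, edgeR adjusted p = 0.0031).

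The genotype difference of Mmp13 in normoxia missed the threshold without replicate 1 or 2 of WT normoxia (log2 fold change 1.71 each, edgeR adjusted p = 0.069 and 0.064) and without replicate 1 of FIH-KO normoxia (1.65, edgeR adjusted p = 0.055). In hypoxia FIH-KO cells had an Mmp13 log2 fold change of 0.87 (SE 0.34, edgeR adjusted p = 0.076). That value was 1.36 without replicate 2 of FIH-KO hypoxia (edgeR adjusted p = 0.0034) and 0.13 without replicate 1 (edgeR adjusted p = 0.79). Within FIH-KO cells hypoxia gave 1.18 (SE 0.35, edgeR adjusted p = 0.035), but 0.44 without replicate 1 of FIH-KO hypoxia (edgeR adjusted p = 0.38). With each of the 4 WT and 2 FIH-KO normoxia libraries left out in turn, this value was between 1.12 and 1.25 with an edgeR adjusted p between 0.051 and 0.15. With only the 4 FIH-KO libraries in the fit it was 1.20 (edgeR adjusted p = 0.071).

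The promoters of Mmp3, Mmp10, Mmp13 and Adamts1 are shown to give the motifs found in each and their distance from the start. These genes were higher in FIH-KO normoxia. Mmp14 and Timp2 were higher there too, and their windows, which are not shown, held none of the motifs described next. Each window is the 250 bases before the first base of the main annotated transcript, read 5′ to 3′ on the gene's strand from the GRCm39 reference. Capitals mark the AP-1 motif TGANTCA (the binding sequence of Fos and Jun dimers, searched on both strands), the TATA box TATAAA (on the gene's strand) and the core of the hypoxia response element, ACGTG or GCGTG (on both strands). The windows are chr9:7445572-7445821 for Mmp3, chr9:7502103-7502352 for Mmp10, chr9:7272264-7272513 for Mmp13 and, on the minus strand, chr16:85600010-85600259 for Adamts1.
Mmp3: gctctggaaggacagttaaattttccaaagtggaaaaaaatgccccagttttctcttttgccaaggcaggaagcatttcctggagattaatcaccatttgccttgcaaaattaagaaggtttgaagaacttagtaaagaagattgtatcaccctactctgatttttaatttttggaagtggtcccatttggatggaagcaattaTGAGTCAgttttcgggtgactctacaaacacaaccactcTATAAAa
Mmp10: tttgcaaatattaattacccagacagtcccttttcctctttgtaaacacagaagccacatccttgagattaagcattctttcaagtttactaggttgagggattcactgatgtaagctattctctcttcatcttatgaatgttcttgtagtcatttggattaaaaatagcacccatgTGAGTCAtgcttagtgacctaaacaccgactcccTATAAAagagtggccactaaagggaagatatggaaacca
Mmp13: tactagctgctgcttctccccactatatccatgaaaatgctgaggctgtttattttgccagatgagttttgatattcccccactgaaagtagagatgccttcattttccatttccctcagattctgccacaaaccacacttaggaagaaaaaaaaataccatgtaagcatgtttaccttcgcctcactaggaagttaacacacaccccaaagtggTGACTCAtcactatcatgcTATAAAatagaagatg
Adamts1: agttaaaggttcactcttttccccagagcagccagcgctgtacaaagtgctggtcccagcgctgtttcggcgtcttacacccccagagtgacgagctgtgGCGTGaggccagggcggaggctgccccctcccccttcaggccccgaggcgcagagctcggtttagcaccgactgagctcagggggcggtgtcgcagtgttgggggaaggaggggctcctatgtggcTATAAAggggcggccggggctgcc

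The AP-1 motif lay 46 to 40 bases before the start in Mmp3, 73 to 67 in Mmp10 and 35 to 29 in Mmp13. Among the 10 genes it was also found in Mmp9 (69 to 63 bases before the start) and in none of Mmp2, Mmp14, Adamts1 or the 3 Timp genes. Of the 11622 promoters of tested protein-coding genes, 4.52% held it. The TATA box was found in Mmp3, Mmp10, Mmp13 and Adamts1 and in 4.14% of those promoters. The hypoxia response element core was found in Mmp9, Timp1, Timp3 and Adamts1, beside 54.1% of those promoters. Of these genes, Adamts1 rose with hypoxia, Timp1, with 2 such matches, fell, and Timp3, also with 2, passed in neither genotype. Mmp9 was not tested. Among the tested genes without a match, Mmp10 and Mmp13 rose, Timp2 fell, and Mmp3 and Mmp14 passed in neither genotype. A link of the matches to these changes was not tested. A match describes letters in a window and does not show binding.

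Mmp14 is a membrane-anchored MMP that cleaves pericellular collagen and activates pro-Mmp2 with Timp2 as a bridge. It lies on chromosome 14 from 54668878 to 54682821. Mmp14 held at 197 and 204 CPM in WT normoxia, 170 and 175 in WT hypoxia, 390 and 354 in FIH-KO normoxia and 347 and 358 in FIH-KO hypoxia. Genotypes did not overlap, and libraries of a group were close. FIH-KO cells had 1.86 times the WT level in normoxia (log2 fold change 0.90, SE 0.10, edgeR adjusted p = 0.00011) and 2.05 times in hypoxia (log2 fold change 1.03, SE 0.11, edgeR adjusted p = 4.4e-05). With hypoxia the log2 fold change was -0.22 in WT cells (95% interval -0.44 to 0.01, edgeR adjusted p = 0.13) and -0.08 in FIH-KO cells (-0.30 to 0.15, edgeR adjusted p = 0.67). The Mmp3 and Mmp14 genotype differences passed in both oxygen conditions under all 15 alternatives.

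The gelatinases were at the limit of detection. Mmp2, the substrate of Mmp14, had 0 and 0 counts in WT normoxia, 3 and 2 in WT hypoxia, 4 and 3 in FIH-KO normoxia and 0 and 2 in FIH-KO hypoxia. Mmp9 had 4 and 1 counts in WT normoxia, 9 and 10 in WT hypoxia, 4 and 2 in FIH-KO normoxia and 3 and 2 in FIH-KO hypoxia. The WT hypoxia libraries were the highest for Mmp9. With totals near those given above, a library with 3 counts is at the floor used here, and no difference of Mmp2 was detectable at this depth.

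Adamts1 is a secreted protease with thrombospondin repeats that cleaves versican and aggrecan. It lies on the minus strand of chromosome 16 from 85590579 to 85600009. Its level was 15.1 and 13.4 CPM in WT normoxia, 82.6 and 64.8 in WT hypoxia, 25.4 and 43.4 in FIH-KO normoxia and 74.6 and 68.2 in FIH-KO hypoxia. The hypoxia groups overlapped, and both normoxia groups lay below them and apart from each other. Hypoxia raised Adamts1 by 5.18 times in WT cells (log2 fold change 2.37, SE 0.22, edgeR adjusted p = 2.4e-05) and by 2.07 times in FIH-KO cells (log2 fold change 1.05, SE 0.21, edgeR adjusted p = 0.0054). FIH-KO cells had 2.42 times the WT level in normoxia (log2 fold change 1.28, SE 0.22, edgeR adjusted p = 0.0014) and 0.968 times in hypoxia (log2 fold change -0.05, 95% interval -0.49 to 0.39, edgeR adjusted p = 0.89).

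Of the 8 tested genes, Adamts1 had the largest change of its genotype difference between the oxygen conditions. The interaction, the log2 fold change of FIH-KO over WT in hypoxia minus that in normoxia, was -1.32 (SE 0.30, unadjusted p = 0.00082 from edgeR, edgeR adjusted p = 0.29). It passed with DESeq2's Wald test (-1.31, adjusted p = 0.0089) and in edgeR without the filter on low counts (-1.30, adjusted p = 5.7e-06), and over all alternatives the adjusted p ran from 5.7e-06 to 1.0. In edgeR 0 of the 8 tested members and 0 of all 13933 tested genes (0%) passed for the interaction. Adamts1 was the 1 member with an unadjusted p under 0.05, beside 925 of all tested genes. DESeq2 called 40 genes. For Mmp10 the interaction was -1.07 (95% interval -2.27 to 0.14) and for Mmp13 -0.85 (-2.02 to 0.33). A larger genotype effect on either gene in normoxia than in hypoxia is therefore not shown.

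**Figure D2:**
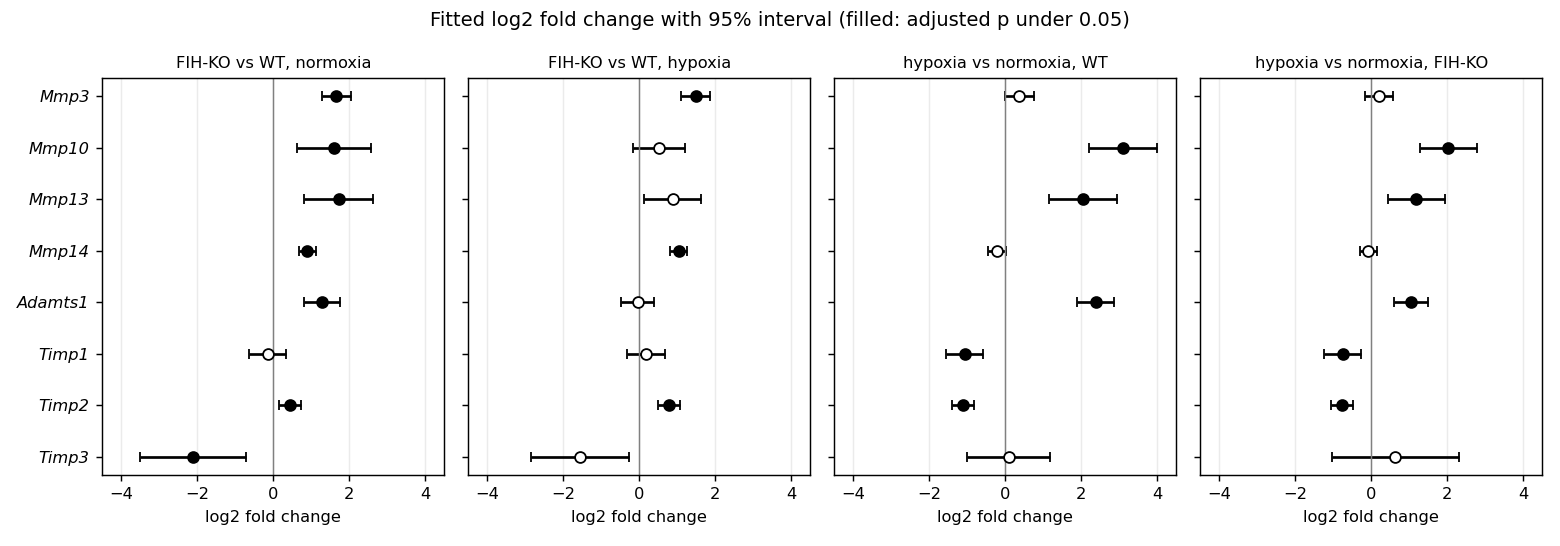
Fitted log2 fold change of the 8 tested genes in the 4 comparisons, with bars for the 95% interval and filled points where the edgeR adjusted p was under 0.05. Mmp3, Mmp14 and Timp2 pass in both genotype comparisons, Mmp10, Mmp13, Adamts1 and Timp3 in the genotype comparison in normoxia, and Mmp10, Mmp13, Adamts1, Timp1 and Timp2 in both oxygen comparisons.

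The inhibitors differed among themselves. Timp2, a soluble inhibitor that also takes part in the activation of pro-Mmp2, lies on the minus strand of chromosome 11 from 118191887 to 118246566. The libraries had 377 and 397 CPM of Timp2 in WT normoxia, 186 and 171 in WT hypoxia, 497 and 550 in FIH-KO normoxia and 265 and 343 in FIH-KO hypoxia. The 4 groups did not overlap. Hypoxia lowered it to 0.462 times in WT cells (log2 fold change -1.11, SE 0.13, edgeR adjusted p = 0.00012) and 0.581 times in FIH-KO cells (-0.78, SE 0.13, edgeR adjusted p = 0.0022). FIH-KO cells had 1.70 times the WT level in hypoxia (log2 fold change 0.77, SE 0.13, edgeR adjusted p = 0.0014). In normoxia they had 1.35 times (log2 fold change 0.44, SE 0.13, edgeR adjusted p = 0.027). This call was lost without replicate 1 or 2 of WT normoxia (0.40, edgeR adjusted p = 0.18, and 0.45, edgeR adjusted p = 0.12) and without replicate 1 or 2 of FIH-KO normoxia (0.51, edgeR adjusted p = 0.056, and 0.36, edgeR adjusted p = 0.12).

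Timp1, a soluble inhibitor of most secreted MMPs, lies on the X chromosome from 20736316 to 20740976. It stood at 42.0 and 38.0 CPM in WT normoxia, 19.2 and 18.7 in WT hypoxia, 29.5 and 42.4 in FIH-KO normoxia and 15.8 and 26.8 in FIH-KO hypoxia. The normoxia libraries were all above the hypoxia libraries, and the genotypes overlapped. In WT cells Timp1 fell with hypoxia to 0.475 times (log2 fold change -1.07, SE 0.23, edgeR adjusted p = 0.0040) and in FIH-KO cells to 0.592 times (-0.76, SE 0.23, edgeR adjusted p = 0.039). The genotype log2 fold change was -0.15 in normoxia (95% interval -0.63 to 0.33) and 0.17 in hypoxia (-0.34 to 0.67).

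The Timp1 call in FIH-KO cells depended on the fit. It missed the threshold without replicate 2 of FIH-KO normoxia (log2 fold change -0.47, edgeR adjusted p = 0.27), without replicate 1 of FIH-KO hypoxia (-0.42, edgeR adjusted p = 0.21), with each of the 4 WT libraries left out in turn (-0.73 to -0.76, edgeR adjusted p between 0.063 and 0.074) and with only the 4 FIH-KO libraries in the fit (-0.73, edgeR adjusted p = 0.11).

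Timp3, an inhibitor that stays bound to the matrix and also acts on ADAM and ADAMTS proteases, lies on chromosome 10 from 86136236 to 86185371. It had 18 and 11 counts in WT normoxia, 16 and 15 in WT hypoxia, 5 and 2 in FIH-KO normoxia and 7 and 3 in FIH-KO hypoxia. All WT libraries were above all FIH-KO libraries. The level in FIH-KO cells was 0.232 times that in WT cells in normoxia (log2 fold change -2.11, SE 0.64, edgeR adjusted p = 0.027) and 0.338 times in hypoxia (log2 fold change -1.57, SE 0.59, edgeR adjusted p = 0.069). The call in normoxia was lost without replicate 1 of WT normoxia (-1.65, edgeR adjusted p = 0.20), without replicate 1 or 2 of FIH-KO normoxia (-2.92, edgeR adjusted p = 0.054, and -1.57, edgeR adjusted p = 0.15) and with DESeq2 (-2.15, adjusted p = 0.089).

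Set against each other within a library, enzyme counts per inhibitor count were lowest in WT normoxia. The libraries had 0.521 and 0.513 Mmp14 counts per Timp2 count in WT normoxia, 0.912 and 1.02 in WT hypoxia, 0.785 and 0.643 in FIH-KO normoxia and 1.31 and 1.04 in FIH-KO hypoxia. Mmp3 counts per Timp1 count were 2.44 and 3.44 in WT normoxia, 7.45 and 8.43 in WT hypoxia, 11.0 and 9.60 in FIH-KO normoxia and 22.2 and 18.3 in FIH-KO hypoxia. Both ratios were highest in FIH-KO hypoxia, and the 4 groups did not overlap in either. For Mmp14 per Timp2 the hypoxia groups were barely apart, with 1.02 in the higher WT library and 1.04 in the lower FIH-KO library. For Mmp10, Mmp13 and Adamts1 per Timp1 the WT and FIH-KO hypoxia groups overlapped. Adamts1 per Timp1 was 4.29 and 3.46 in WT hypoxia and 4.72 and 2.54 in FIH-KO hypoxia. The pairs were chosen with the levels known, gene lengths were not taken into account, and no test was made of the ratios, which describe RNA and not the balance of active protein.

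**Figure D3:**
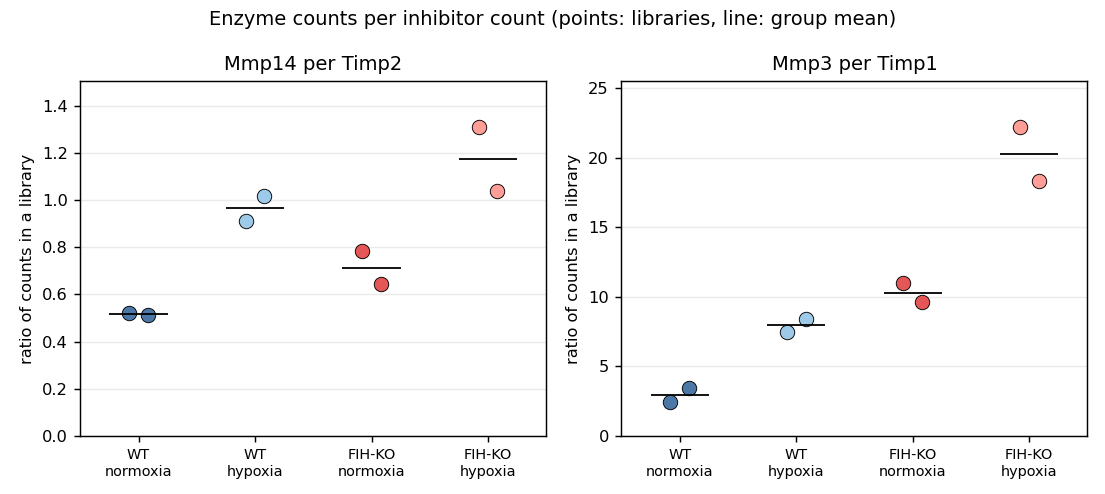
Counts of Mmp14 per count of Timp2 and of Mmp3 per count of Timp1 in each library, with points for libraries and a line at the group mean, on linear axes from 0. Mmp3 per Timp1 runs from 2.44 in WT normoxia to 22.2 in FIH-KO hypoxia.

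The order of the levels was compared per length, as CPM per kb of annotated exon. In WT normoxia Timp2 was highest at 86.7 ± 3.1 (SD, n = 2), followed by Mmp3 at 64.7 ± 11 (SD, n = 2), Mmp14 at 32.4 ± 0.81 (SD, n = 2), Timp1 at 20.4 ± 1.4 (SD, n = 2) and Adamts1 at 2.60 ± 0.22 (SD, n = 2). Mmp13 at 0.484 and Mmp10 at 0.410 came next, and Timp3, Mmp9 and Mmp2 were at or below 0.111. In FIH-KO hypoxia Mmp3 led at 234 ± 55 (SD, n = 2), followed by Timp2 at 68.1 ± 12 (SD, n = 2) and Mmp14 at 57.2 ± 1.2 (SD, n = 2). The difference of Timp2 and Mmp14 there was smaller than the SD of Timp2. Adamts1 at 13.0 ± 0.83 and Timp1 at 10.9 ± 4.0 (SD, n = 2 each) overlapped. With the length of the longest transcript in place of all exons, Mmp14 came to 58.0 in WT normoxia, within the spread of Mmp3. In FIH-KO hypoxia the order of Mmp14 and Timp2 turned with that length, to 102 ± 2.1 for Mmp14 and 79.5 ± 14 for Timp2 (SD, n = 2 each).

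The neighbours of the 3 proteases on chromosome 9 belong to an MMP cluster. In order from Mmp13 it holds Mmp12, Mmp1b, Mmp3, Mmp1a, Mmp10, Mmp8, Mmp27, Mmp20 and Mmp7, and the last 4 had at most 2 counts in any library. Mmp12, a macrophage elastase, had 0 and 0 counts in WT normoxia, 8 and 4 in WT hypoxia, 4 and 13 in FIH-KO normoxia and 120 and 66 in FIH-KO hypoxia. The FIH-KO hypoxia libraries were far above all others. Set against a floor of 3 counts a library in WT normoxia, FIH-KO normoxia held at least 2.61-fold higher Mmp12 levels. WT hypoxia held at least 1.95-fold higher levels. Mmp12 passed the filter on low counts only through the FIH-KO hypoxia libraries, so a higher value there was built into its passing. Its edgeR adjusted p was between 0.00039 and 0.023 in the 4 comparisons. Mmp1a, an interstitial collagenase, had 4 and 4 counts in WT normoxia and 29 and 25 in WT hypoxia (log2 fold change 2.72, SE 0.50, edgeR adjusted p = 0.0018), and its paralog Mmp1b had 18 and 9 against 47 and 40 (log2 fold change 1.67, SE 0.47, edgeR adjusted p = 0.017). Mmp1a passed the filter only through the hypoxia libraries, where it is higher, so a higher value there was built into its passing. Every MMP of the cluster that was tested had a higher mean in WT hypoxia than in WT normoxia, and Mmp3 did not pass there. The nearest protein-coding genes outside the cluster, Dcun1d5 before Mmp13 and Tmem123 after Mmp7, passed in 3 and 2 of the 4 comparisons, with log2 fold changes between -0.44 and 0.38 in all 4.

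**Figure D4:**
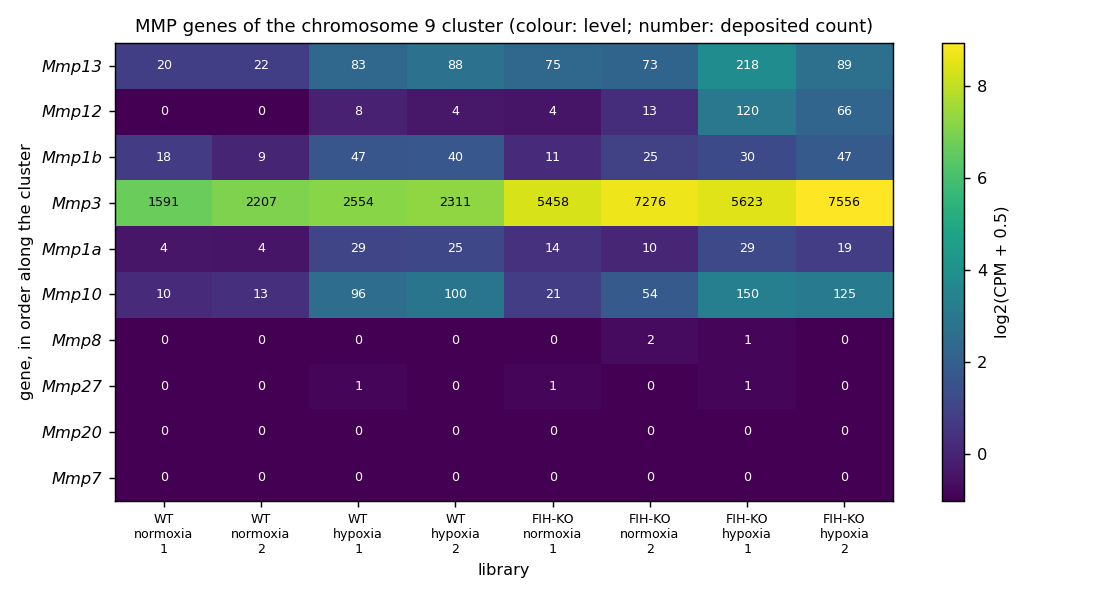
MMP genes of the chromosome 9 cluster in their order along the chromosome, by library. Colours show log2(CPM + 0.5) and the printed numbers are deposited counts, with Mmp3 at 1591 to 7556 and Mmp12 at 0 to 120.

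Across the rest of the family, 7 of 17 other MMPs were tested. In FIH-KO against WT cells 4 passed in each oxygen condition and were higher. Of all tested genes 28.2% passed in normoxia (15.2% higher) and 28.0% in hypoxia (14.1% higher). Mmp12 is among the 4 in both conditions, and its higher value in FIH-KO hypoxia was built into its passing the filter. With hypoxia 5 passed in WT cells and were higher, beside 32.4% of all tested genes (16.9% higher). Mmp1a is among these 5, and a higher value in hypoxia was built into its passing the filter. So is Mmp12, on 8 and 4 counts in WT hypoxia and 0 and 0 in WT normoxia. In FIH-KO cells 1 was higher and 1 lower with hypoxia, beside 16.8% of all tested genes. The higher gene was Mmp12, with the limit from the filter given above. Mmp19 had 113 and 107 counts in WT normoxia and 869 and 791 in FIH-KO normoxia, a log2 fold change of 2.82 (SE 0.16, edgeR adjusted p = 6.3e-07), and 2.06 in hypoxia (SE 0.16, edgeR adjusted p = 7.1e-06). Mmp11 rose in FIH-KO cells by a log2 fold change of 1.40 in normoxia and 1.51 in hypoxia (SE 0.19 each, edgeR adjusted p = 0.00032 and 2.0e-04). Mmp28 rose by 1.99 in normoxia (SE 0.27, edgeR adjusted p = 0.00027). Mmp23 had 5 and 9 counts in WT normoxia and 40 and 43 in WT hypoxia (log2 fold change 2.56, SE 0.42, edgeR adjusted p = 0.00088). The AP-1 motif was found in the promoters of 5 of these 7 genes (Mmp1a, Mmp1b, Mmp12, Mmp19 and Mmp28). Of 4 other inhibitors Reck alone was tested, with log2 fold changes from -0.38 to 0.46 in the 4 comparisons (edgeR adjusted p at least 0.49).

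Among 18 other ADAMTS genes, 7 were tested, of which those that differed by genotype, 2 in normoxia and 3 in hypoxia, were lower in FIH-KO cells. Of all tested genes 28.2% differed by genotype in normoxia and 28.0% in hypoxia. With hypoxia 2 were higher and 1 lower in each genotype, beside 32.4% of all tested genes in WT and 16.8% in FIH-KO cells. Adamts9, like Adamts1 a proteoglycan-cleaving enzyme, had 69 and 143 counts in WT normoxia, 204 and 176 in WT hypoxia, 14 and 16 in FIH-KO normoxia and 83 and 70 in FIH-KO hypoxia. It was lower in FIH-KO cells in normoxia (log2 fold change -2.89, SE 0.36, edgeR adjusted p = 0.00015) and in hypoxia (-1.27, SE 0.28, edgeR adjusted p = 0.0061), while Adamts1 was higher in FIH-KO normoxia. Adamts7, at 4 to 37 counts a library, was also lower in FIH-KO normoxia (log2 fold change -1.65, SE 0.55, edgeR adjusted p = 0.042). Adamts6 rose with hypoxia in WT (log2 fold change 1.62, SE 0.24, edgeR adjusted p = 0.00051) and FIH-KO cells (1.06, SE 0.25, edgeR adjusted p = 0.013). Of 9 ADAM sheddases, 6 were tested. In FIH-KO against WT cells 1 was lower in normoxia, and 1 was higher and 1 lower in hypoxia. With hypoxia 0 passed in WT cells, and 1 was higher in FIH-KO cells. Adam19 was lower in FIH-KO cells in normoxia and hypoxia (log2 fold change -1.505 and -2.153, edgeR adjusted p = 0.025 and 0.0057).

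In the plasminogen system, which can activate pro-MMPs, 5 of 8 genes were tested. Those that differed by genotype, 2 in normoxia and 1 in hypoxia, were higher in FIH-KO cells. Of all tested genes 28.2% differed by genotype in normoxia and 28.0% in hypoxia. Serpine2, an inhibitor of plasminogen activators and thrombin, was higher in FIH-KO cells by 2.59 (normoxia) and 2.99 (hypoxia) on the log2 scale (SE 0.28 and 0.31, edgeR adjusted p = 6.3e-05 and 5.3e-05). Of 8 genes for activation and induction of MMPs, 7 were tested, and those that passed, 4 in FIH-KO normoxia and 5 in FIH-KO hypoxia, were higher. The convertase Pcsk6 had log2 fold changes of 1.21 and 1.86 there (edgeR adjusted p = 0.0045 and 0.00029), and Bsg, an inducer of MMPs, rose with hypoxia by 1.10 in WT and 1.25 in FIH-KO cells (edgeR adjusted p = 0.00022 and 0.00021).

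Among the secreted cathepsins and their inhibitors 5 of 7 genes were tested. In FIH-KO cells 4 were higher and 1 lower in normoxia, and 4 passed in hypoxia and were higher. Of all tested genes 28.2% differed by genotype in normoxia and 28.0% in hypoxia. The aspartic protease gene Ctsd had log2 fold changes of 1.24 and 1.03 (SE 0.12 each, edgeR adjusted p = 3.0e-05 and 1.0e-04). The cathepsin inhibitors Cstb (1.03 and 1.09) and Cst3 (0.81 and 1.03) were higher too (edgeR adjusted p at most 0.00069). Of 11 matrix genes whose products MMP and ADAMTS enzymes cleave, 8 were tested, and the direction was mixed, with 2 higher and 3 lower in FIH-KO normoxia and 2 higher and 2 lower in FIH-KO hypoxia. Thbs1 (log2 fold change 3.48 and 3.15) and Fn1 (1.68 and 1.10) were higher in FIH-KO cells, and Bgn (-2.56 and -3.98) and Tnc (-1.64 and -2.68) were lower (edgeR adjusted p at most 0.021). Spp1, the gene for osteopontin, rose with hypoxia by 0.56 in WT and 1.21 in FIH-KO cells on the log2 scale (SE 0.16 each, edgeR adjusted p = 0.021 and 0.00055). Tnc rose with hypoxia in WT cells (log2 fold change 2.82, SE 0.35, edgeR adjusted p = 0.00015).

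The AP-1 and ETS factors, which bind MMP promoters, were all tested, 11 genes. With hypoxia 8 passed in WT cells and 5 in FIH-KO cells, and these were higher. Of all tested genes 32.4% passed with hypoxia in WT cells (16.9% higher) and 16.8% in FIH-KO cells (8.84% higher). In FIH-KO against WT cells 1 was higher and 2 lower in normoxia, beside 28.2% of all tested genes there and 28.0% in hypoxia. In hypoxia 0 passed by edgeR and 0 by DESeq2, and 3 had an unadjusted edgeR p under 0.05. The factors named next rose with hypoxia. Fos, which is among them, had 3 and 1 counts in WT normoxia and 29 and 16 in WT hypoxia. It passed the filter on low counts only through the hypoxia libraries, so a higher value there was built into its passing. Ets2 rose by a log2 fold change of 2.02 in WT and 1.22 in FIH-KO cells (SE 0.19 and 0.18, edgeR adjusted p = 2.3e-05 and 0.0010), and Junb by 1.89 and 1.10 (SE 0.33 and 0.32, edgeR adjusted p = 0.0012 and 0.033). Fosl1 rose by 1.07 and 1.27 (SE 0.24 each, edgeR adjusted p = 0.0052 and 0.0042), and Fosb by 2.31 in WT cells (SE 0.42, edgeR adjusted p = 0.0016). The median over the 11 genes was 1.07 in WT cells, beside -0.00 over all tested genes.

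Leukocytes, fibroblasts and endothelial cells also make these proteases, and their markers were therefore summed in each library. In bulk RNA, fewer cells of a type and less RNA per cell cannot be told apart. Of 6 leukocyte markers, S100a8 and S100a9 were at 0 in every library, Itgam had at most 1 count and Ptprc at most 3. The leukocyte sum therefore came mainly from Cd68 (41 to 115 counts) and Csf1r (0 to 53 counts). The summed leukocyte level was 2.70 to 3.32 CPM in WT normoxia, 7.92 to 8.18 in WT hypoxia, 4.31 to 5.24 in FIH-KO normoxia and 3.84 to 9.12 in FIH-KO hypoxia. The 4 endothelial markers summed to 0.296 to 0.321, 1.77 to 2.41, 0.238 to 0.280 and 0.325 to 0.50 CPM in the same order. Among them Cdh5 reached 35 counts, and Pecam1, Kdr and Tek had at most 8, 3 and 1. The 5 fibroblast markers summed to 28.8 to 31.0, 16.9 to 24.8, 22.0 to 25.6 and 9.31 to 19.1 CPM, highest where Mmp10 and Mmp13 were lowest. The leukocyte and endothelial sums, which rest on these few genes, moved with hypoxia in WT cells, as did Mmp10, Mmp13 and Adamts1. The leukocyte sum was also higher in FIH-KO than in WT normoxia. The 4 mesenchymal markers, which this line expresses itself, summed to 4400 to 5150, 5540 to 5990, 8250 to 9040 and 9180 to 11000 CPM. That sum came mainly from Vim and Fn1. By genotype, Cdh2 passed in neither oxygen condition (edgeR adjusted p = 0.15 in normoxia and 0.48 in hypoxia), and S100a4 in normoxia only (0.047 and 0.23). The 6 epithelial markers summed to 326 to 352, 226 to 283, 436 to 538 and 334 to 447 CPM. Both the mesenchymal and the epithelial sum were higher in FIH-KO than in WT cells at each oxygen level, as were Mmp3 and Mmp14. The part of any of these sums in the results was not tested.

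Over the 8 libraries the genes whose log2 CPM followed Mmp10 most closely, among 10575 with at least 50 counts on average, were Lats1 (Pearson r = 0.989), Pdpk1 (0.987) and Smurf2 (0.985). Those most like Timp2 were Mapre2 (Pearson r = 0.994), Asap2 (0.993) and Parva (0.992). These correlations describe the same 8 libraries, in which the 4 groups set most of the spread, and carry no test.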

How the data were processed

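RNA-Seq of LLC cells was measured in 8 libraries. Libraries came from a stranded mRNA kit, and the authors used STAR for alignment (GRCm39) and HTSeq for counting reads on genes. The deposited values are these raw counts for 53700 genes. The strand setting of the counting and its handling of reads with several matches are not given in the sources used here. Groups came from the sample labels.

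The fit used edgeR 4.0.16 in R 4.3.3, with TMM scaling, genes kept by filterByExpr for the 4 groups and 1 quasi-likelihood fit with a mean per group. P values were adjusted by Benjamini-Hochberg over 13933 genes, with a threshold of 0.05. Standard errors and 95% intervals came from that fit, and the biological coefficient of variation was 11.7%. The calls of FIH-KO against WT in normoxia were tested on simulated counts, with changes placed only in genes with many counts. That test does not cover genes with few counts or the other comparisons. Alternatives were RLE and upper-quartile scaling, other filters, DESeq2 1.42.0, only the compared libraries, the replicate number as a term, and each library left out in turn.

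Positions, transcripts and promoter windows came from GENCODE M39 on GRCm39, in which 52610 identifiers (97.97%) were found. Python 3.11.15 was used for these steps. All 10 members were named, and from each context list the genes with an adjusted p under 0.05, an absolute log2 fold change of at least 1 and a mean of at least 10 counts, at most 4 a list and comparison. A single other gene that met this rule is not reported here. Dcun1d5 and Tmem123 were named for their position, and Reck as the tested gene of its list. Members and lists were chosen with earlier results of these data known.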

Additional observations from a re-analysis of the deposited data

Results flagged for a closer look

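The 2 libraries of every group allow no test for single outlying libraries. Mmp2 was noted because all libraries moved in opposite ways in the conditions compared. FIH-KO minus WT was 0.203 CPM in normoxia and -0.0872 CPM in hypoxia, and hypoxia minus normoxia was 0.152 CPM in WT and -0.138 CPM in FIH-KO cells. These differences rest on 0 to 4 counts a library, at or near the floor of 3 counts, and the difference between conditions was not tested.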

How the results depend on the processing

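Of 587 tests of members under an alternative, 538 kept their direction and their side of the threshold, 29 lost the call, 7 gained it and 13 changed sign. With a library left out, the members called ranged from 3 to 7 for FIH-KO against WT in normoxia (3 without replicate 1 of WT normoxia, 4 without its replicate 2 or either FIH-KO normoxia library), from 3 to 4 in hypoxia, from 5 to 5 for hypoxia in WT cells, from 3 to 5 for hypoxia in FIH-KO cells and were 0 for the interaction. In FIH-KO cells hypoxia gave 3 calls with only the 4 libraries compared. The interaction gave 1 call with no filter and 1 with DESeq2, each time Adamts1. All sign changes came from leaving out a library, and none of these values passed: Timp1 in normoxia (-0.439 to 0.087) and hypoxia (-0.26 to 0.50), and Adamts1 in hypoxia (-0.21 to 0.14), for FIH-KO against WT; Timp3 for hypoxia in WT (-0.30 to 0.55) and FIH-KO cells (-0.05 to 1.45); Mmp3 for hypoxia in FIH-KO cells (-0.06 to 0.43); and the interactions of Mmp3 (-0.428 to 0.057), Timp1 (-0.11 to 0.65) and Timp3 (-0.14 to 1.36). With the longest transcript as length, CPM per kb in WT normoxia moved to 58.0 for Mmp14, 101 for Timp2, 0.188 for Timp3 and 2.83 for Adamts1, each by more than 1 SD. Over all genes, 3933 were called for FIH-KO in normoxia (1725 to 4587 with a library left out), 3896 in hypoxia (2194 to 3928), 4509 for hypoxia in WT (2138 to 5148) and 2345 in FIH-KO cells (1118 to 2580, and 1249 with only the libraries compared), and 0 for the interaction (143 with no filter, 40 with DESeq2, 5 with the replicate block, 0 to 17 with a library left out, the 17 without replicate 1 of FIH-KO hypoxia). The labels do not say what a replicate number shares. Deviations of same-numbered libraries from their group means correlated between -0.04 and 0.21, the highest between WT and FIH-KO hypoxia. With 2 libraries a group this does not settle whether the numbers pair the libraries. With the replicate block 7, 3, 6, 5 and 0 members passed in the 5 comparisons. With 2 libraries a group the cause of these changes was not tested, and Mmp2, Mmp9 and Timp3 were limited by depth.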
